A study of Mus musculus with 5 samples.

Results

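BCL2 family genes encode the proteins that decide whether mitochondria release the factors that start apoptosis. The members were the rows of the deposited gene table whose symbol was Bcl2, Bcl2l1, Mcl1, Bcl2a1a, Bcl2a1b, Bcl2a1d, Bcl2l11, Bad, Bid or Bak1, and all 10 were found among the 16003 genes with a value. The cells were RAW264.7, a mouse macrophage line. Control cells expressed Renilla luciferase, and CD137 cells expressed the same luciferase together with mouse Cd137, a TNF receptor family member that is the product of Tnfrsf9. Both groups therefore carry the luciferase. How the sequences were introduced, and whether a line is a clone or a pool of cells, is not given in the sources used here. Of 2 control and 3 CD137 samples in the series, the table covers control replicate 2 and CD137 replicates 2 and 3. Values are FPKM, which divides a gene's fragments by its transcript length and by the size of the library, so that levels of different genes can be compared.

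In this family the survival proteins BCL-2, BCL-xL (Bcl2l1), MCL-1 and BFL-1/A1 (the Bcl2a1 genes) bind and restrain the death-promoting members. The effectors BAK (Bak1) and BAX (Bax) form pores in the outer mitochondrial membrane. The BH3-only proteins BIM (Bcl2l11), BAD and BID sense stress and tip the balance, either by occupying the survival proteins or by engaging the effectors. Bcl2a1 and Bcl2l1 are known NF-kB target genes. In the mouse, A1 is encoded by several near-identical gene copies on chromosome 9.

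The Bcl2a1 copies carry the largest differences in the family, so their sequences are shown first. The first 90 coding bases, from the start codon, hold 6 of the 12 positions at which the copies differ over 519 coding bases. They come from the GENCODE M21 transcripts (GRCm38, the same assembly as mm10), at chr9:88957051-88957140 on the plus strand for Bcl2a1a, chr9:89199360-89199449 on the plus strand for Bcl2a1b, and chr9:88731630-88731719 on the minus strand for Bcl2a1d. Capitals mark the positions that differ between copies.
Bcl2a1a: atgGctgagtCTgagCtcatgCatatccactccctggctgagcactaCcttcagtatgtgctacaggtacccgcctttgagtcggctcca
Bcl2a1b: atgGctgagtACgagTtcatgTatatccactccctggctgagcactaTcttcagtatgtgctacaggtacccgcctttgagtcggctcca
Bcl2a1d: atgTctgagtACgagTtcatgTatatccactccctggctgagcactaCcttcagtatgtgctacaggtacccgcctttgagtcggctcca
Over the whole coding sequence Bcl2a1a and Bcl2a1b differed at 11 positions (97.9% identity), Bcl2a1a and Bcl2a1d at 7 (98.7%), and Bcl2a1b and Bcl2a1d at 6 (98.8%).

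Such similarity limits which fragments can be assigned to a copy. Of all stretches of 50 bases in the Bcl2a1a transcript, 31.0% occur in no transcript of another gene, against 20.8% for Bcl2a1b and 20.5% for Bcl2a1d. With stretches of 150 bases the shares were 71.8%, 58.1% and 69.8%. Read length is not given in the sources used here. For Bcl2a1b part of the sharing is with Gm29094, a gene model on the same strand that overlaps it at 89199379 to 89215471 and has no value in the table. Values are given below for each copy and for the sum of the 3.

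The copies also resemble each other upstream. The stretches below come from RefSeq's promoter sequences (GRCm38.p6) and hold only bases outside the GENCODE model of the copy itself. The Bcl2a1d stretch lies within Gm10634, a gene annotated on the opposite strand. They lie at chr9:88956714-88956855 (plus strand), chr9:89199023-89199164 (plus strand) and chr9:88731915-88732050 (minus strand). Capitals mark the letters GAGGAA on either strand, the core of the site of the myeloid factor PU.1.
Bcl2a1a: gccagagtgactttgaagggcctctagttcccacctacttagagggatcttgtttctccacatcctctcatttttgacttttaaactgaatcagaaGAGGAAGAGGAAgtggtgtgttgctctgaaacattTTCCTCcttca
Bcl2a1b: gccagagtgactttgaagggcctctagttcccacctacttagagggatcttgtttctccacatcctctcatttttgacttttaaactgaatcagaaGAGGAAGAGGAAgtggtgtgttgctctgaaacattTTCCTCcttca
Bcl2a1d: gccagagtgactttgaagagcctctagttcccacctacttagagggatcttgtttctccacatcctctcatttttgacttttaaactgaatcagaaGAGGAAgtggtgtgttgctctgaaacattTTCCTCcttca
Bcl2a1a and Bcl2a1b were identical over 142 bases. Bcl2a1d lacks 6 of them, which leaves it a single GAGGAA on the gene's strand where the others have a pair, and has 1 further mismatch.

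All 10 members had RefSeq promoters of 300 bases around the annotated start, 14 in all. Searched on both strands, GAGGAA was in 7 of the 14 promoters, each of a different member, and in 28.3% of 32851 mouse promoters. The 3 near-identical Bcl2a1 copies are among the 7. A loose AP-1 pattern, TGANTCA with N any base, was in all 3 Bcl2a1 promoters, at 1 position each. The match was tgaatca, with a at the N, just before the GAGGAA of the stretches above. The copies are near-identical there, so the 3 matches are not independent. The pattern was in no promoter of the other 7 members and in 7.81% of all promoters. The NF-kB consensus was in 1 of the 3 Bcl2l1 promoters, in none of the Bcl2a1 windows, and in 8.46% of all promoters. The letters TGACG were in 5 of the 14 promoters, the 3 Bcl2a1 ones included (20.8% of all promoters). TATAAA was in 0 of the 14 (13.6% of all promoters). These are matches of letters in a short window, not binding sites. In the Bcl2a1 promoters the matches of the different motifs did not overlap.

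Control and CD137 libraries differed in the introduced gene as labelled, with Tnfrsf9 at 5.06 FPKM where only luciferase was expressed and at 364 and 370 FPKM in the CD137 libraries. Depth in the CD137 libraries, inferred from the authors' p-values under an assumed form of their test, was 0.983 and 0.988 of the control. Of 12 macrophage markers 11 reached 1 FPKM in every library. The 12 summed to 3676 FPKM in the control and to 2445 and 2502 FPKM in the CD137 libraries, and Lyz2 made up the largest part of the gap. Markers of T cells, B cells, granulocytes and mast cells, fibroblasts and red cells summed to at most 5.21 FPKM per list and library, most of it Lck. The keratins Krt8, Krt18 and Krt19 reached up to 2.60 FPKM in CD137 replicate 2, where the epithelial list summed to 7.97 FPKM, against 1.03 FPKM in control cells and 1.48 FPKM in CD137 replicate 3. Their part in the results below was not tested. Since no label states that the 2 CD137 libraries are separate cultures, the p-values cover only the spread between them, possibly a technical one, and the single control is assumed to vary as they do. A change in the share of cells that express a gene cannot be told apart from a change in its RNA per cell.

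Differences were tested with limma on log2(FPKM + 1) over the 10720 expressed genes (1 FPKM in any library), with Benjamini-Hochberg adjustment over all of them, and rose and fell are used for an adjusted p under 0.05. All 10 members were at 1 FPKM or more in each of the 3 libraries, so none was tested only because of the group where it was high. By that test 6 members rose, 2 fell and 2 did not pass, where 42.6% of all expressed genes passed, 24.4% higher and 18.2% lower. The 6 include the 3 near-identical Bcl2a1 copies, whose fragments are not cleanly separated, so these are not independent observations. Over all 16003 genes without the expression limit, the same limma test called 0 genes, with 5281 at an unadjusted p under 0.05, and the adjusted p of the members ran from 0.0802 to 0.235. The median log2 difference of the members, each copy counted, was 0.26, and that of all expressed genes 0.03.

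**Figure D1:**
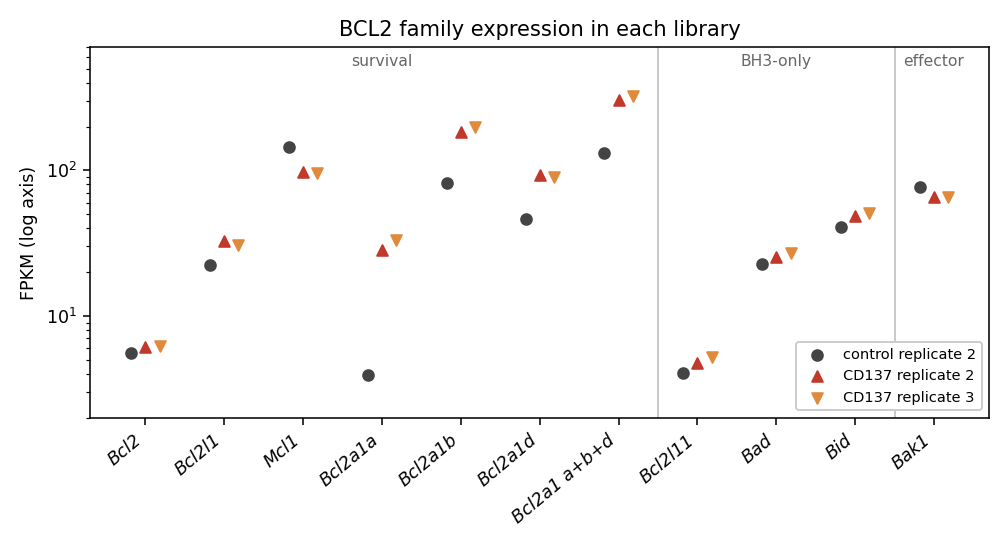
FPKM on a log axis of the 10 family members and of the Bcl2a1 copies summed (a+b+d), 1 point per library, grouped into survival genes, BH3-only genes and the effector. Both CD137 points lie above the control for 8 members and below it for Mcl1 and Bak1.

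The Bcl2a1 genes, which encode the A1 survival protein, rose at every copy. Bcl2a1b (gene ID 12045, chromosome 9 from 89199273 to 89207838, plus strand) was the most abundant copy, with 82.1 FPKM in the control against 184 and 200 in CD137 replicates 2 and 3. Both CD137 libraries lay far above the control, and the mean of 192 ± 11.2 FPKM (SD, n = 2) was 2.34-fold the control value. Its log2 difference was 1.22 ± 0.06 (SE, limma adjusted p = 0.000808).

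Bcl2a1d (gene ID 12047, chromosome 9 from 88723288 to 88731850, minus strand) was at 46.3 FPKM in the control and at 93.6 and 90.5 FPKM in the CD137 libraries. The CD137 values again sat close together and clear of the control, 1.99-fold above it on average, with a log2 difference of 0.98 ± 0.04 (SE, limma adjusted p = 0.000808). Gm10634, a gene annotated on the opposite strand across Bcl2a1d, was at 0.13 FPKM in control cells and 0.61 and 1.21 FPKM in the CD137 libraries.

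Bcl2a1a (gene ID 12044, chromosome 9 from 88956920 to 88962416, plus strand) was the scarcest copy in all 3 libraries and had the largest relative difference. The control had 3.9 FPKM, and CD137 replicates 2 and 3 had 28.3 and 33.0. The mean of 30.6 ± 3.34 FPKM (SD, n = 2) was 7.85-fold the control value, and the log2 difference was 2.69 ± 0.10 (SE, limma adjusted p = 0.000552). Of all expressed genes, 3 had a log2 difference at least as high, itself included. Its share of the FPKM of the 3 copies was 2.95% in the control and 9.22% and 10.2% in the CD137 libraries, while Bcl2a1b kept 62.0%, 60.2% and 61.9% and Bcl2a1d went from 35.0% to 30.6% and 27.96%. These shares rest on how the authors' software divided fragments among near-identical copies.

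Summed over the copies, which removes the division among them, Bcl2a1 came to 132 FPKM in the control against 306 and 324 in CD137 replicates 2 and 3. The sum rose 2.38-fold to 315 ± 12.3 FPKM (SD, n = 2), with a log2 difference of 1.25 ± 0.05 (SE, limma adjusted p = 0.00055). Of the 10720 expressed genes, with the copies kept as separate rows, 52 had a log2 difference at least as high, Bcl2a1a included. A further copy, Bcl2a1c on chromosome 9, is easier to tell apart, since 89.6% of its stretches of 50 bases occur in no other gene's transcript. It was scarce, at 0.32 FPKM in control cells and 2.81 and 1.84 FPKM in the CD137 libraries. It rose (limma adjusted p = 0.00768), but passed the expression limit only through the CD137 libraries. Adding it left the sum at 133 FPKM in control cells and 317 ± 11.6 FPKM (SD, n = 2) in CD137 cells.

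Genes next to the copies moved the same way by less. Mthfs, a folate metabolism gene beside Bcl2a1b, rose from 8.50 to 13.6 ± 0.23 FPKM (SD, n = 2, limma adjusted p = 0.00243), and Mthfsl, its relative beside Bcl2a1d, from 17.5 to 22.4 ± 0.12 FPKM (limma adjusted p = 0.00729). Among 6703 other genes with a mean of at least 10 FPKM, the 5 whose log2 differences in both CD137 libraries lay closest to those of the Bcl2a1 sum were Cox6a2, Htatip2, Slc43a3, Nfkb2 and Grina, at Euclidean distances of 0.02 to 0.06 on the log2 scale. With 3 libraries such likeness rests on 2 differences that share the control.

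Mcl1 encodes a short-lived survival protein and went the other way. Mcl1 (gene ID 17210, chromosome 3 from 95658410 to 95663179, plus strand) had 144 FPKM in the control against 97.6 and 96.6 in CD137 replicates 2 and 3. The CD137 libraries were nearly equal and lay well below the control. The mean of 97.1 ± 0.73 FPKM (SD, n = 2) was 0.672 of the control, a log2 difference of -0.57 ± 0.04 (SE, limma adjusted p = 0.00116). Of all expressed genes, 360 had a difference at or below it.

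Bcl2l1, the gene of BCL-xL (gene ID 12048, chromosome 2 from 152758732 to 152834797, minus strand), rose from 22.4 FPKM to 32.5 and 30.9 FPKM. The mean of 31.7 ± 1.10 FPKM (SD, n = 2) was 1.42-fold the control value, with a log2 difference of 0.49 ± 0.05 (SE, limma adjusted p = 0.00333). Its long and short splice forms, which are known to act in opposite directions, are not separated in these values. Cox4i2, a gene on the opposite strand that overlaps its 3′ end, was at 2.95 FPKM in control cells and 1.38 and 2.02 FPKM in the CD137 libraries.

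Bcl2, the founding gene of the family (gene ID 12043, chromosome 1 from 106538176 to 106714290, minus strand), was low in all libraries and did not pass. It was at 5.58 FPKM in control cells and 6.14 and 6.23 FPKM in the CD137 libraries, both slightly above. The log2 difference was 0.13 ± 0.07 (SE, limma adjusted p = 0.225).

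The make-up of the survival genes therefore differed between the libraries. In the control Mcl1 gave 47.4% and the Bcl2a1 copies 43.4% of the summed FPKM of the 6 survival genes. In the CD137 libraries the Bcl2a1 copies gave 69.2% and 70.8% and Mcl1 22.1% and 21.1%. The Bcl2a1 sum was 0.916 of the Mcl1 level in the control and 3.14 and 3.35 times that level in the CD137 libraries. The total of the 6 genes was 305 FPKM in control cells and 442 and 457 FPKM in CD137 replicates 2 and 3. Bcl2l1 stayed at 6.76% to 7.34% of it and Bcl2 at 1.36% to 1.83%.

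**Figure D2:**
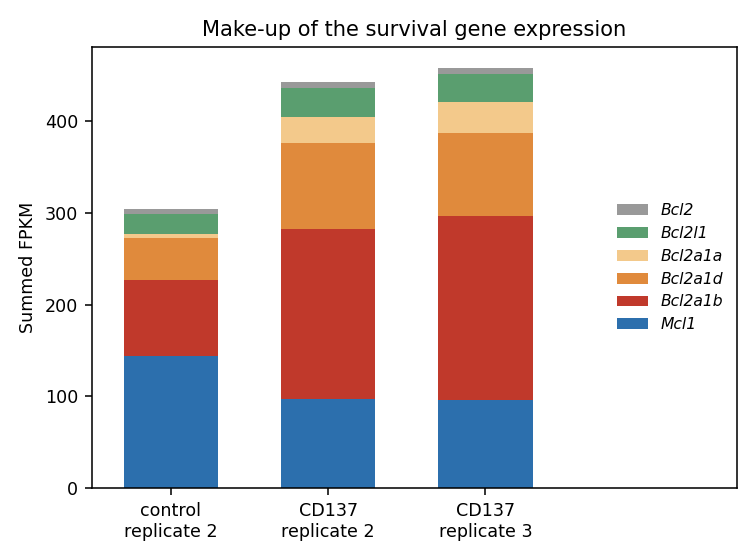
Summed FPKM of the 6 survival genes in each library (bars stacked by gene, axis from 0). Mcl1 is the largest block in the control, at 144 FPKM, and Bcl2a1b is the largest block in both CD137 libraries, at 184 and 200 FPKM.

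Of the 3 BH3-only members 2 rose and 1 did not pass, where 24.4% of all expressed genes rose. Bid, whose protein is cut by caspase-8 to link death receptors to mitochondria (gene ID 12122, chromosome 6 from 120893119 to 120917141, minus strand), was at 40.6 FPKM in control cells and 48.9 and 51.0 FPKM in the CD137 libraries. It rose 1.23-fold, to 49.99 ± 1.48 FPKM (SD, n = 2), with a log2 difference of 0.29 ± 0.05 (SE, limma adjusted p = 0.00925).

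Bad, which encodes a partner of BCL-xL that is held inactive by phosphorylation (gene ID 12015, chromosome 19 from 6941861 to 6951905, plus strand), was at 22.8 FPKM in control cells and 25.5 and 27.1 FPKM in the CD137 libraries. It passed narrowly, with a log2 difference of 0.20 ± 0.06 (SE, limma adjusted p = 0.0469). The call was lost with quantile normalisation (adjusted p = 0.1), without the mean-variance trend (adjusted p = 0.0877) and without the expression limit (adjusted p = 0.182). Gpr137, on the opposite strand across its first bases, was at 10.6 FPKM in control cells and 10.1 and 11.4 FPKM in the CD137 libraries.

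Bcl2l11, the gene of BIM (gene ID 12125, chromosome 2 from 128126038 to 128162547, plus strand), was the least expressed of the BH3-only members. It was at 4.07 FPKM in control cells and 4.76 and 5.19 FPKM in the CD137 libraries, both above the control. Its log2 difference of 0.24 ± 0.09 (SE) did not pass (limma adjusted p = 0.092). The extra-long, long and short BIM forms are not separated.

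Bak1, the pore-forming effector among the members (gene ID 12018, chromosome 17 from 27019812 to 27028626, minus strand), fell. It was at 76.8 FPKM in control cells and 65.8 and 65.7 FPKM in the CD137 libraries, which were nearly equal. The mean of 65.7 ± 0.06 FPKM (SD, n = 2) was 0.856 of the control, with a log2 difference of -0.22 ± 0.04 (SE, limma adjusted p = 0.0115). Ggnbp1, on the opposite strand across the whole gene, was at 1.87 FPKM in control cells and 2.72 and 3.31 FPKM in the CD137 libraries.

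**Figure D3:**
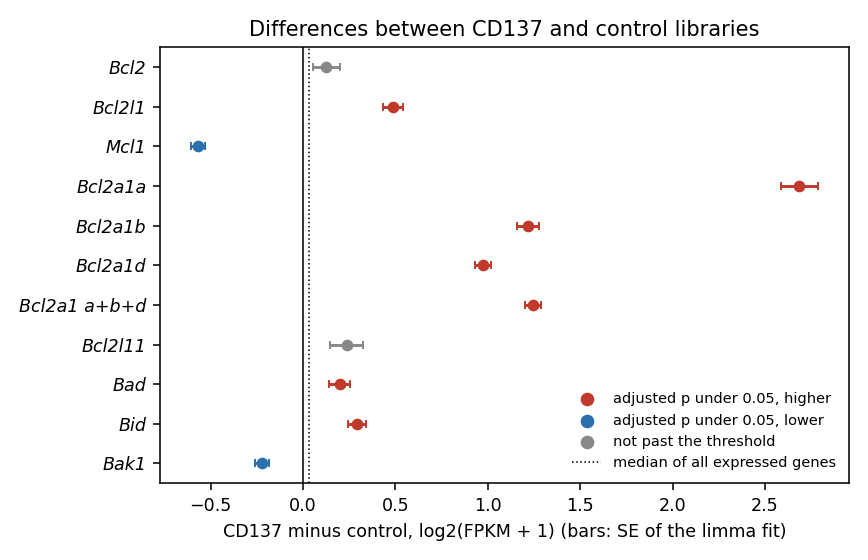
Difference between CD137 and control on the log2(FPKM + 1) scale for each member and for the summed Bcl2a1 copies; bars are the SE of the limma fit, colours give the call, and the dotted line is the median of all expressed genes, 0.03. The Bcl2a1 copies lie at 0.98 to 2.69, and Mcl1 at -0.57 is the lowest.

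The order of the members by FPKM changed between the groups. In the control it was Mcl1, Bcl2a1b, Bak1, Bcl2a1d, Bid, Bad, Bcl2l1, Bcl2, Bcl2l11 and Bcl2a1a from high to low. With a single control library its neighbours carry no spread, but Bad and Bcl2l1 (22.8 and 22.4 FPKM) and Bcl2l11 and Bcl2a1a (4.07 and 3.9 FPKM) lay close together. In both CD137 libraries Bcl2a1b came first, followed by Mcl1, Bcl2a1d, Bak1 and Bid. Bcl2a1a and Bcl2l1 came next and changed places between the 2 libraries, so they do not differ beyond their spread, and Bad, Bcl2 and Bcl2l11 closed the order. The ranges of the 2 CD137 libraries overlapped for no other neighbouring pair.

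The authors' p-values, which come from a Poisson test on 2 libraries at a time per the file headers, compare libraries and not conditions. They allowed whole fragments (or reads, which the table does not say) to be solved for all 10 members. Bcl2a1a rested on 53 fragments in the control and on 383 and 449 in the CD137 libraries. Relative to the control and adjusted for depth, that is 7.35 (95% interval 5.51 to 9.99) and 8.58 (6.44 to 11.6). Bcl2a1b had 1084, 2394 and 2613 fragments, and Bcl2a1d 638, 1269 and 1233. These counts per copy rest on how the authors' software divided fragments among near-identical copies, which the intervals leave out. The 3 copies together had 1775 fragments in the control and 4046 and 4295 in the CD137 libraries, ratios of 2.32 (2.19 to 2.45) and 2.45 (2.32 to 2.59). By counting error alone, Bcl2a1a is thus the least precise of the 3 copies, and the sum is precise to within several percent. The further copy Bcl2a1c rested on only 2 fragments in the control and on 20 and 13 in the CD137 libraries. Its ratios of 10.2 (2.47 to 89.8) and 6.58 (1.49 to 60.05) are less precise still.

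Mcl1 had by far the most fragments, 9050 in the control and 6015 and 5989 in the CD137 libraries, with ratios of 0.676 (0.654 to 0.699) and 0.67 (0.648 to 0.692). Bcl2l1 had 1058, 1474 and 1442 fragments, with ratios of 1.42 (1.31 to 1.54) and 1.38 (1.27 to 1.495). Bcl2 had 714, 767 and 758, with ratios of 1.09 (0.986 to 1.21) and 1.08 (0.969 to 1.19), and both intervals include 1. Both ratios of a gene share the control library. The intervals are exact binomial ones and cover counting error only, not variation between cultures.

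Among the pro-death members Bid had 1386, 1639 and 1715 fragments and Bak1 2764, 2326 and 2335, and their intervals lay on 1 side of the control in both CD137 libraries. For Bid the ratios were 1.203 (1.12 to 1.29) and 1.25 (1.17 to 1.34), and for Bak1 0.856 (0.810 to 0.905) and 0.855 (0.809 to 0.904). Bad had 399, 435 and 456 fragments, with ratios of 1.11 (0.966 to 1.27) and 1.16 (1.009 to 1.33). Bcl2l11 had 354, 405 and 442, with ratios of 1.16 (1.007 to 1.35) and 1.26 (1.10 to 1.46). In the authors' deposited table the adjusted value for Bad was 0.248 and 0.0777 against CD137 replicates 2 and 3, and for Bcl2l11 0.0842 and 0.00338. Between the CD137 libraries the same table gives no member an adjusted value under 0.141, the lowest belonging to Bcl2a1b.

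**Figure D4:**
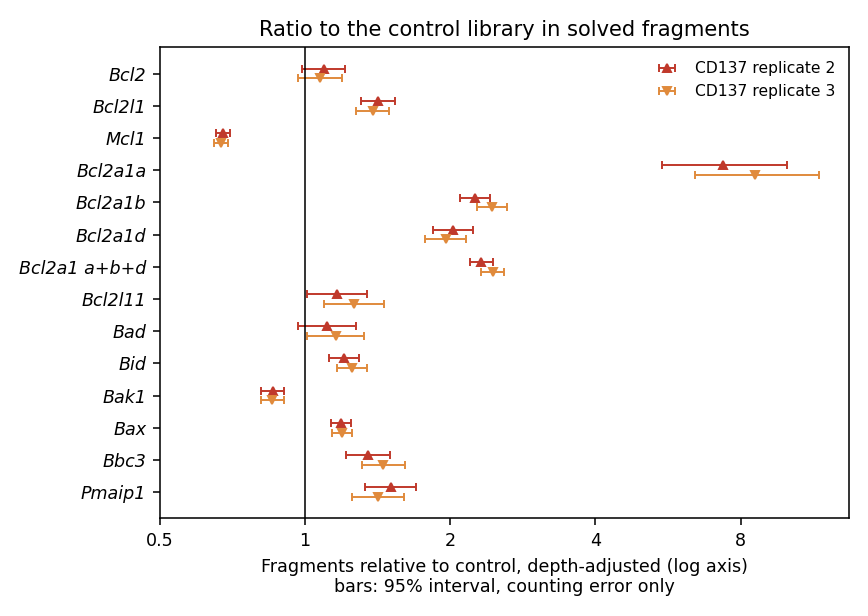
Solved fragments in each CD137 library relative to the control library, adjusted for depth, on a log axis, for the members, the summed Bcl2a1 copies, Bax, Bbc3 and Pmaip1; bars are 95% intervals for counting error only. Bcl2a1a at 7.35 and 8.58 has the widest bars, and Mcl1 and Bak1 alone lie below 1.

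The rest of the family was read from lists of other members. Bax, the second effector, was the most abundant pore-former, at 213 FPKM in control cells and 253 and 254 FPKM in the CD137 libraries. It rose 1.19-fold (limma adjusted p = 0.00517), whereas Bak1 fell. Bok and the distant member Bcl2l14 stayed under 1 FPKM in every library. Bclaf1, a BCL-2-associated transcription factor that was on the same list but is not a family member, rose 1.24-fold (limma adjusted p = 0.00649). Bcl2l13, at 9.66 FPKM in control cells and 10.6 ± 0.06 FPKM (SD, n = 2) in CD137 cells, did not pass.

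Of the other BH3-only genes, the p53 targets Bbc3 (PUMA) and Pmaip1 (NOXA, a known partner of MCL-1) rose. Bbc3 was at 20.1 FPKM in control cells and 27.1 and 29.1 FPKM in the CD137 libraries (1.39-fold, limma adjusted p = 0.00547). Pmaip1 was at 9.23 FPKM in control cells and 13.9 and 13.1 FPKM in the CD137 libraries (1.46-fold, limma adjusted p = 0.00519). Both CD137 libraries were clear of the control for each gene. Bnip3, a hypoxia-induced mitophagy receptor, fell from 361 FPKM to 205 and 212 FPKM (0.579 of the control, limma adjusted p = 0.000808), while its relative Bnip3l was at 61.6 FPKM in control cells and 63.0 ± 1.48 FPKM (SD, n = 2) in CD137 cells. Bmf was at 4.01 FPKM in control cells and 2.70 and 3.26 FPKM in the CD137 libraries and did not pass (limma adjusted p = 0.0795). Bik, Hrk and Bcl2l15 stayed under 1 FPKM. Of the other survival genes, Bcl2l2 (BCL-W), at 12.4 FPKM in control cells and 13.6 ± 0.35 FPKM (SD, n = 2) in CD137 cells, and Bcl2l12, at 5.85 and 6.91 ± 0.80 FPKM (SD, n = 2), did not pass.

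Over all lists of the apoptosis pathway, the other family genes and Bclaf1 above included, 69 genes were expressed. Of these 21 rose, 16 fell and 32 did not pass, against 24.4% and 18.2% of all expressed genes called higher and lower. The 21 include Bcl2a1c and Fas, which passed the expression limit only through the CD137 libraries and so lend the count no support. The median log2 difference of the 69 genes was 0.02. Of 8 expressed inhibitor of apoptosis genes, 4 rose and 1 fell (median 0.22). Birc3, which encodes cIAP2, was at 30.4 FPKM in control cells and 68.9 and 72.4 FPKM in the CD137 libraries (limma adjusted p = 0.000755), and Naip5, Birc2 and Naip2 rose 1.71-fold, 1.19-fold and 1.196-fold. Birc5 (survivin), known as a mitotic gene, fell to 0.777 of the control, and Xiap did not pass at 19.1 FPKM in control cells and 18.9 ± 0.81 FPKM (SD, n = 2) in CD137 cells.

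Downstream of mitochondria, 2 of 10 apoptosome and mitochondrial genes rose and 3 fell (median -0.04). Among all expressed genes 24.4% rose and 18.2% fell. Apaf1, the scaffold of the apoptosome, fell to 0.777 and Casp9, which it activates, to 0.816 of the control (limma adjusted p = 0.0185 and 0.0222). Aifm1 fell from 35.7 FPKM to 22.7 and 21.7 FPKM and Endog to 0.792 of the control, while Diablo, an antagonist of the inhibitor proteins, rose 1.37-fold and Vdac3 1.24-fold. Vdac2, the channel known to hold BAK, was at 231 FPKM in control cells and 241 ± 1.66 FPKM (SD, n = 2) in CD137 cells and did not pass. Of 8 expressed caspases 3 rose and 2 fell (median 0.14). The inflammatory caspase gene Casp4 had the largest difference, from 17.6 FPKM to 52.6 and 57.5 FPKM (limma adjusted p = 0.000755).

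Upstream of BID, 2 of 8 expressed genes of the death receptor arm rose and 2 fell (median 0.05). The shares over all expressed genes were 24.4% and 18.2%. Fas rose from 0.72 FPKM to 3.66 and 3.65 FPKM, passing the expression limit only through the CD137 libraries. Cflar, the inhibitor of caspase-8 activation, rose 1.23-fold, and Casp8 itself rose 1.29-fold, from 34.6 FPKM to 44.7 FPKM in both CD137 libraries. Ripk1 fell to 0.681 of the control. Fadd, at 7.06 FPKM in control cells and 7.95 ± 0.51 FPKM (SD, n = 2) in CD137 cells, and Tradd, at 11.4 and 10.9 ± 0.33 FPKM (SD, n = 2), did not pass.

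Of 19 expressed partners and regulators of BAD, BIM and MCL-1, 2 rose and 6 fell (median -0.05). Over all expressed genes 24.4% rose and 18.2% fell. Dynll1 and Dynll2, light chains known to bind BIM, fell to 0.696 and 0.900 of the control. Foxo3, a transcription factor of the BIM gene, fell to 0.842 and the kinase gene Akt1, whose product phosphorylates BAD, to 0.781. Among the 14-3-3 genes Ywhab fell to 0.797 and Ywhag rose 1.30-fold. The deubiquitinase gene Usp9x, whose product stabilises MCL-1, rose 1.13-fold, and the ligase genes Huwe1 and Fbxw7 did not pass (limma adjusted p = 0.783 and 0.86). Of the 5 NF-kB subunits Nfkb2, Relb and Nfkb1 rose, Rel fell, and Rela did not pass (limma adjusted p = 0.814).

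**Figure D5:**
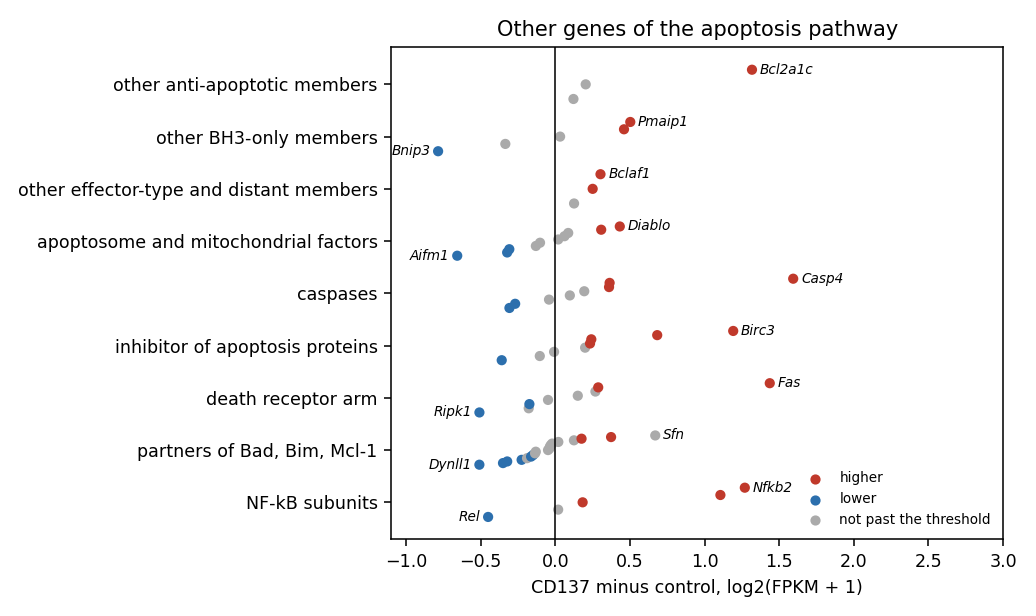
Difference between CD137 and control on the log2(FPKM + 1) scale for the expressed genes of 9 pathway lists, 1 point per gene, coloured by call, with the extreme genes named. Points fall on both sides of 0 in most lists, with Casp4, Fas, Bcl2a1c, Nfkb2 and Birc3 farthest to the right and Bnip3 farthest to the left.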

How the data were processed

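The authors' table holds FPKM per gene for each library to the nearest 0.01, beside log2 ratios, p-values and adjusted values for pairs of libraries, per the file headers. The adjusted p-values in the deposited table exceed 1 for some genes and were treated as a score. Per the submitters' processing notes HISAT2, Bowtie2, RSEM and mm10 are listed, with no role or version stated. Per the labels, oligo-dT beads picked out the RNA. Whether counting used strand is not given in the sources used here. Among the values, the deposited log2 ratios were not used for tests.

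From the FPKM, limma 3.58.1 in R 4.3.3 was fitted to log2(FPKM + 1), with moderated variances that follow a trend in the mean. Differences on this scale understate the change of low genes. The fit has 1 residual degree of freedom. The members and lists were chosen with earlier results of these data known, as was the expression limit. When the limit was chosen, a fit of all genes was known to make no call and a fit of expressed genes to make calls. Named were all members, the introduced gene, the other family members, genes beside the Bcl2a1 copies, the 5 genes most like the Bcl2a1 sum, and expressed genes of the lists, Bcl2l10 and Bcl2l16 being without a value here. Genes overlapping other members were named after their values were seen. Relative depths and fragments were solved from the authors' p-values, assuming the Audic-Claverie form of the Poisson test. The ratio of fragments was let differ from that of FPKM in widening steps until a solution appeared. The widest step needed was 6%, for Bcl2, Bcl2l1 and Bad. At the step where the search stopped, a single solution was found for each of 14 genes. The fit and the solver were run on simulated data, with outcomes that are not given here. The solver was simulated at its narrowest step only, so the wider steps were not tested. Of the members, only Bcl2a1b, Bcl2a1d and Bak1 were solved at that narrowest step. No column of per-sample values was left unmapped. Replicate 1 of either group was not analysed here.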

Additional observations from a re-analysis of the deposited data

How the results depend on the processing

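The alternatives were a fit of all genes, a mean of at least 1 FPKM as the limit, a pseudocount of 0.1 FPKM, quantile normalisation, median centring and no mean-variance trend. Without the expression limit the fit called 0 members, 0 of them higher and 0 lower, and 0 other pathway genes, and the Bcl2a1 sum kept its log2 difference of 1.25 with an adjusted p of 0.0803. The cause was not tested. Under the other 5 alternatives the counts of called members and pathway genes stayed within 1.5 times, and of the members' calls only that of Bad was lost. The log2 difference of the Bcl2a1 sum ranged from 1.22 to 1.26, and was 1.25 with Bcl2a1c added, an alternative chosen after seeing the data. No member's direction reversed under any alternative. Without CD137 replicate 2 or without CD137 replicate 3, no residual degrees of freedom remain for a test, and the log2 difference of the Bcl2a1 sum was 1.28 and 1.21. No paired analysis was possible because the groups share only replicate number 2. The single control cannot be left out, so how far it differs from other control cultures is unknown.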
